A study of Mus musculus with 1824 samples.

Results

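The red cell membrane and its skeleton were followed here through 8 genes, Slc4a1, Rhag, Ermap, Ank1, Epb42, Sptb, Epb41 and Add2, which were found by matching their symbols to the Ensembl identifiers of the count tables and make up 8 of the 55487 genes counted. Each of the 8 symbols matched 1 row. The cells came from chimaeric mouse embryos of 2 stages, E7.5 and E8.5. A Tet triple-knockout (Tet-TKO) embryonic stem cell line, marked with a CAG-driven H2B-tdTomato plasmid, had been injected into C57BL/6J blastocysts that were carried by CD1 recipients, so that each embryo was a mixture of Tet-TKO and host cells. The labels give the strain as CD1 and the tissue as E7.5 embryo or E8.5 embryo. All knockout cells descend from 1 line, and the embryos of a chimaera experiment were pooled before sorting except for 4 E7.5 embryos that have a plate each. The labels do not say which cells carried tdTomato or which gate they passed, so Tet-TKO and host cells were not compared. Single live cells stained for KDR and CD41 were sorted in 96-well plates, with 11 plates for E7.5 embryos and 8 for E8.5 embryos. Their messenger RNA was sequenced by Smart-seq2, for some of the cells as the RNA readout of scNMT-seq, a method that also reads DNA methylation and open chromatin in the same cell. Since no animal is named for the cells with embryonic globin, each stage was treated as 1 sample and no p-value was computed. Intervals are 95% intervals on read counts or on shares of cells. They cover counting error only, and reads copied by PCR are not independent molecules.

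The red cell membrane is held in shape by a mesh of spectrin tetramers beneath the lipid bilayer. Spectrin is fastened to the bilayer in 2 ways: through ankyrin to the anion exchanger band 3, and through protein 4.1, actin and adducin to glycophorins and band 3. The primitive erythroid cells of the yolk sac, the first red cells of the mouse, carry embryonic globins and build this membrane while they still have a nucleus. Of the 8 genes, 3 code for proteins that cross the membrane: Slc4a1 for band 3, which exchanges chloride for bicarbonate, Rhag for the Rh-associated glycoprotein, and Ermap for an erythroid protein of the immunoglobulin superfamily that carries the Scianna blood group. A further 2 code for proteins that tie the membrane to the mesh, Ank1 for ankyrin-1 and Epb42 for protein 4.2. The last 3 belong to the skeleton itself: Sptb codes for erythroid beta-spectrin, Epb41 for protein 4.1R and Add2 for beta-adducin.

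The genes lie on GRCm38 at chr11:102348824-102366203 (Slc4a1, minus strand, 4891 bp of exons), chr17:40811126-40840754 (Rhag, plus, 2339 bp), chr4:119175457-119190011 (Ermap, minus, 5297 bp), chr8:22974844-23150497 (Ank1, plus, 13527 bp), chr2:121017891-121037072 (Epb42, minus, 5417 bp), chr12:76580488-76710547 (Sptb, minus, 12147 bp), chr4:131923413-132075321 (Epb41, minus, 15942 bp) and chr6:86028681-86124409 (Add2, plus, 10139 bp). All 8 are protein-coding. Slc4a1, Rhag, Ermap and Epb42 overlap no other annotated gene. Opposite-strand genes share exonic bases with the other members: Gm15816 shares 6.37% of the exonic bases of Ank1, Gm44089 shares 3.51% of those of Add2, Gm10300 and Gm13063 share 0.891 and 0.571% of those of Epb41, and Plekhg3 shares 1 base with Sptb. Whether the counting used strand is not given in the sources used here, so reads in those bases cannot be told apart by gene. Over all 1824 cells the reads of each of these Gm genes came to 0.0153 to 0.424% of the reads of the gene it overlaps, while Plekhg3 held 23067 reads of its own.

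Promoter sequences were held for 6 of the 8 members in RefSeq on GRCm38.p6, with no entry used for Slc4a1 and Ank1. The 150 bases before the transcription start are printed for 4 genes, chosen to set promoters of genes that were close to silent in cells without globin (Rhag, Ermap) beside those of genes read in some or most such cells (Sptb, Epb41). Capitals mark TTATC, which is GATAA read on the other strand, the core of the sequence bound by GATA factors such as Gata1. The windows are chr17:40810999-40811148 (plus strand), chr4:119189996-119190145, chr12:76710548-76710697 and chr4:132075314-132075463 (minus strand), each written 5′ to 3′ along the gene.
Rhag: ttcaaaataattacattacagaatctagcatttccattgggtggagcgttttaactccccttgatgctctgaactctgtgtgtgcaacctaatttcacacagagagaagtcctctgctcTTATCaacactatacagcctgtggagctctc
Ermap: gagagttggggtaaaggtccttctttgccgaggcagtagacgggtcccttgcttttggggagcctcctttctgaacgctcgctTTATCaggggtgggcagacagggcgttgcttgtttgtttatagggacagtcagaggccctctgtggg
Sptb: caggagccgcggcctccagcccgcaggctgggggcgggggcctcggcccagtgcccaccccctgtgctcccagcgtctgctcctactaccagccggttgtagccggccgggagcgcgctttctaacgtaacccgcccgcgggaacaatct
Epb41: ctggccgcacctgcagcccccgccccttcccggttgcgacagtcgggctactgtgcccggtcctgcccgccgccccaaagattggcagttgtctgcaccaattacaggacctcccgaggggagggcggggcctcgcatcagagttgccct

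Over the 250 bases before the start, and on either strand, GATAA stood in the entries of Rhag (31 bases before the start), Ermap (67 bases) and, farther out, Epb42. It was in none of the 3 Epb41 entries and in neither the Sptb nor the Add2 entry. Among all 32851 promoter entries, 22.6% held it. CACCC, the core of the site of Klf1, stood in the Rhag, Ermap, Sptb and Add2 entries, as it did in 17087 of the 32851 entries. The promoters differed in base composition: the Rhag entry had 1 CpG and 39.2% G and C, Epb42 had 2 and 43.2%, Ermap 5 and 49.2%, Add2 6 and 53.2%, and Sptb 18 and 65.2%, while the printed Epb41 entry had 15 and 65.2%. The median over all entries was 6 CpGs and 52.4%. The RefSeq starts of Rhag, Ermap, Epb42 and all 3 Epb41 entries lie inside the loci given above, so bases before them lie partly in the annotated gene. For Epb42 the 150 bases next to the RefSeq start, chr2:121036878-121037027, lie wholly inside its locus. A match of letters is a description of the sequence and not a measured site.

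Of 1824 cells, 1649 passed the minimum of 100000 reads in genes (90.5% of the E7.5 wells and 90.2% of the E8.5 wells). They held 100941 to 6162790 reads, with a median of 670090. Levels are given in CPM, the reads of a gene scaled to 1000000 reads in genes. Cells were placed by the summed CPM of the embryonic globin genes Hba-x, Hbb-bh1 and Hbb-y. Globin-high cells, at 10000 CPM or more, made up 13.5% of the 1649 cells, with 55 of them from E7.5 and the rest from E8.5. Globin-low cells, under 1000 CPM, numbered 1385, and 42 cells lay between. There were 35 cells near the upper limit, between 5000 and 20000 CPM. Almost all globin-high cells came from 3 plates: 53 from an E7.5 plate, the one numbered 1 in the set whose titles give a sequencing lane (lane plate 1), 74 from E8.5 plate 1 and 80 from E8.5 plate 2, with 9 on E8.5 plate 5, 3 on plate 6, 1 on plate 7 and 2 on E7.5 lane plate 4. The median depth was 830374 reads in globin-high and 661703 in globin-low cells. All haemoglobin genes together took 13.4% of the reads of globin-high cells and 0.00247% of those of globin-low cells. All 7 erythroid markers, 3 of which are the globins that chose the cells, were at 10 CPM or more in globin-high cells, against 2 of 7 in globin-low cells. Of the other 4, Klf1, an erythroid transcription factor, was at 427.8 against 1.04 CPM, Gata1 at 342.2 against 10.8, Alas2, the first enzyme of haem synthesis in red cells, at 801.4 against 1.65, and Hemgn at 112.5 against 0.0858. Of the other lists, 6 of 7 blood progenitor, 3 of 7 megakaryocyte, 2 of 7 myeloid and 2 of 8 endothelial markers reached 10 CPM in globin-high cells, at summed levels of 772.6, 238.7, 42.1 and 53.7 CPM.

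In cells pooled over plates, all 8 genes were at least 2-fold higher in globin-high than in globin-low cells. Of the 9778 genes tested, 5.17% were at least 2-fold higher and 28.4% at least 2-fold lower. Within some plates Epb41 stayed under 2-fold, as given below. The median log2 difference was 8.62 over the 8 genes and -0.35 over all genes tested. Differences between the genes were large. The 3 membrane-crossing proteins and both linkers were close to absent from globin-low cells, while Sptb and Add2 were present there at a few CPM and Epb41 at more than 100 CPM.

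Slc4a1, the gene for band 3, was at 653.6 CPM (650.1 to 657.2) in globin-high and 0.0697 CPM (0.0551 to 0.0870) in globin-low cells, a log2 difference of 13.19 (12.87 to 13.53), or 9373-fold. This was the first of all 9778 genes by size of difference. Single globin-high cells ran from 0 to 3191 CPM with a median of 2.57, so the pooled level was carried by part of the cells. Rhag, whose product forms the Rh complex that moves ammonia or carbon dioxide across the membrane, was at 132.5 CPM in globin-high and 0.160 CPM in globin-low cells, a log2 difference of 9.69 (9.48 to 9.91). Its single-cell values ran from 0 to 907.2 CPM with a median of 2.28. Ermap was at 158.1 against 0.367 CPM, a log2 difference of 8.75 (8.61 to 8.89), with a cell median of 21.9 and a highest cell of 1114 CPM.

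Of the linkers, Ank1 was at 88.3 CPM in globin-high and 0.0921 CPM in globin-low cells, a log2 difference of 9.90 (9.63 to 10.20). Its cell median was 38.9 CPM and its highest cell 382.9 CPM. Epb42, whose product binds both band 3 and ankyrin, was at 164.5 against 0.456 CPM, a log2 difference of 8.495 (8.369 to 8.624), with a cell median of 108.5 CPM.

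The skeleton genes had smaller differences. Add2 was at 144.1 CPM in globin-high and 2.51 CPM in globin-low cells, a log2 difference of 5.84 (5.79 to 5.90). Sptb was at 211.9 against 5.96 CPM, a log2 difference of 5.15 (5.12 to 5.19), and its cell median of 165.9 CPM was near its pooled level. Epb41 was at 363.2 against 113.5 CPM, a log2 difference of 1.68 (1.66 to 1.69), and every globin-high cell had at least 1 read of it, from 5.83 to 892.4 CPM. Epb41 came 280th among all genes by size of difference, where Sptb came 58th and Add2 46th. Per kilobase of exon, the order of levels in globin-high cells was Slc4a1 at 133.6 CPM per kb, Rhag at 56.6, Epb42 at 30.4, Ermap at 29.9, Epb41 at 22.8, Sptb at 17.4, Add2 at 14.2 and Ank1 at 6.53. Epb42 and Ermap were the closest neighbours in that order.

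Within plates that held both kinds of cell, the direction was the same for the 3 plates with most globin-high cells. On E8.5 plate 1 (74 globin-high and 16 globin-low cells) the log2 difference was 9.57 for Slc4a1, 8.65 for Rhag, 9.25 for Ermap, 10.67 for Ank1, 10.48 for Epb42, 10.10 for Add2, 8.32 for Sptb and 1.73 for Epb41. On E7.5 lane plate 1 (53 and 37 cells) it was 11.13 for Slc4a1, 5.39 for Rhag, 4.17 for Epb42, 4.68 for Sptb and 0.68 for Epb41, with 1 read each of Ank1 and Add2 in the globin-low cells and none of Ermap, which was at least 969.3-fold higher when set against 3 reads. On E8.5 plate 2, with only 6 globin-low cells, 6 of the 8 genes had no read in those cells, and Slc4a1 was at least 92.9-fold, Epb42 at least 149.2-fold and Add2 at least 94.9-fold higher against 3 reads. Epb41 differed by 0.39 there. E8.5 plate 5 (9 and 50 cells) differed from these plates: Slc4a1 had no read in either kind of cell and Rhag was at 0 in globin-high against 0.725 CPM in globin-low cells, while Sptb was higher by 3.12, Epb42 by 3.41 and Epb41 by 0.62, and Ermap, Ank1 and Add2 were read in globin-high cells only. E8.5 plate 1 weighed on the pooled sizes: without it the log2 difference was 12.58 for Slc4a1, 8.72 for Rhag, 6.94 for Ermap, 9.06 for Ank1, 7.80 for Epb42, 4.56 for Sptb and 4.89 for Add2. Without E7.5 lane plate 1 it was 11.31 for Rhag and 9.60 for Epb42. The 16 globin-low cells of E8.5 plate 1 held 1.70 CPM of Slc4a1, with a read in 81.3% of them, where the globin-low cells of the other 18 plates held at most 0.320 CPM. Those 16 cells shared their plate with 74 globin-high cells and had a median globin of 171.1 CPM, and the part of RNA from other wells in this level was not tested.

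**Figure D1:**
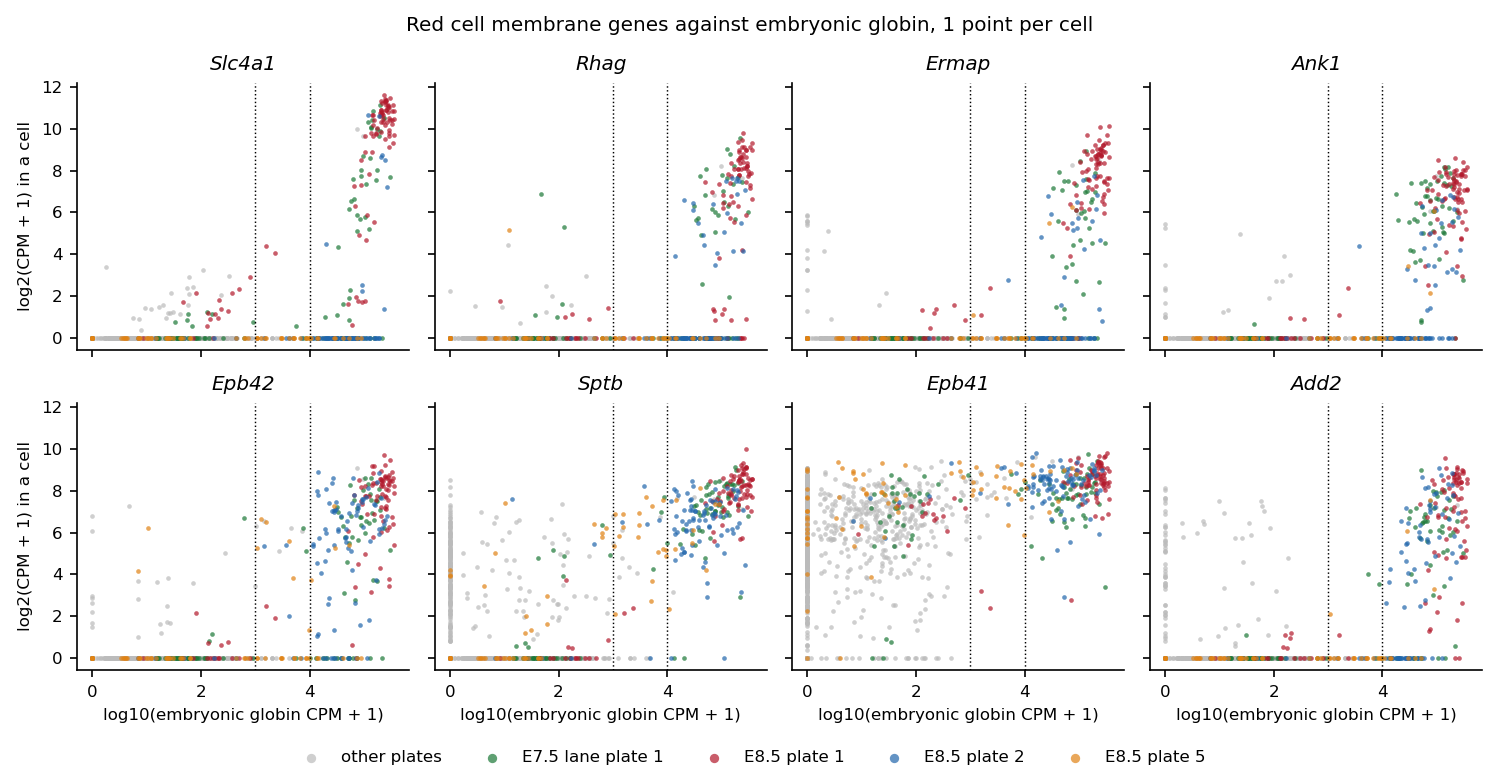
Each point is a cell; the vertical axis is log2(CPM + 1) of 1 of the 8 genes, the horizontal axis log10 of the summed CPM of the 3 embryonic globins plus 1, and colours mark 4 plates with the rest in grey. Dotted lines stand at 1000 and 10000 CPM of globin. Slc4a1 goes from 0.0359 CPM in the pool of cells under 100 CPM of globin to 1230 CPM in cells at 100000 CPM or more, while Epb41 is at 107.3 CPM already in the first of these groups and at 410.7 CPM in the last.

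The genes were then followed along the globin level, in cells under 100 CPM (1286 cells), from 100 to 1000 (99 cells), from 1000 to 10000 (42 cells), from 10000 to 100000 and at 100000 CPM or more. Share of cells with a read was counted after thinning each cell to 100000 reads, so that depth did not set it. The groups pool plates in different proportions, so the levels of a group hold for its mix of plates. In these pools, Sptb and Epb42 were higher in cells with 1000 to 10000 CPM of globin than in cells with less, while Slc4a1, Rhag, Ermap, Ank1 and Add2 were still within a few CPM of 0 there, and Slc4a1 was highest by far in the cells with most globin.

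Epb41 was at 107.3, 221.3, 342.1, 314.1 and 410.7 CPM over the 5 groups, and was read in 87.2% of cells in the first and all cells in the last. Sptb was at 5.59, 12.4, 87.9, 130.8 and 290.3 CPM, and its share of cells went from 12.7 and 20.2% in the first 2 groups to 76.2, 94.96 and 99.03%. Epb42 was at 0.237, 4.29, 21.2, 91.9 and 234.8 CPM, with shares of 0.855, 2.02, 38.1, 66.4 and 95.1%.

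Ank1 stood at 2.23 CPM in the cells with 1000 to 10000 CPM of globin and at 38.7 and 136.2 CPM in the higher 2 groups, with shares of 42.9 and 87.4%. Add2 was at 2.15, 66.4 and 219.3 CPM in these 3 groups, with shares of 2.38, 50.4 and 89.3%. Rhag had no read in any of the 42 cells with 1000 to 10000 CPM of globin, which allows a share of up to 7.14%, and was at 28.7 and 232.9 CPM in the higher groups. Ermap was at 0.226 CPM in those 42 cells, then 30.3 and 281.9 CPM. Slc4a1 was at 1.09, 57.9 and 1230 CPM, with shares of 2.38% (0.0603 to 12.6), 16.8% (10.6 to 24.8) and 84.5% (76.003 to 90.9). By plate, Slc4a1 was read at 10000 to 100000 CPM of globin in 37.5% of 32 cells of E7.5 lane plate 1, 50% of 10 cells of E8.5 plate 1 and 1.59% of 63 cells of E8.5 plate 2, where Sptb was read in 93.8, 100 and 96.8%.

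A finer division of the pooled cells follows. In the 44 cells with 10000 to 30000 CPM of globin, a read was found in 2.27% of cells for Slc4a1, 4.55% for Rhag, 6.82% for Ermap, 9.09% for Ank1, 22.7% for Add2, 56.8% for Epb42 and 88.6% for Sptb. In the 75 cells with 30000 to 100000 CPM the shares were 25.3, 32, 37.3, 62.7, 66.7, 72 and 98.7% in the same order of genes. In the 49 cells with 100000 to 200000 CPM, Slc4a1 and Rhag were both read in 71.4% of cells, and in the 54 cells above that in 96.3 and 88.9%. Globin and the other genes of a cell share its total, so a rise in globin lowers every other CPM of that cell. Not every step was upward: from the cells with 3000 to 10000 CPM of globin to those with 10000 to 30000, Epb41 went from 403.4 to 303.97 CPM and Sptb from 117.8 to 80.8 CPM.

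The order of the genes after Sptb was not the same on each plate. At 30000 to 100000 CPM of globin, Ank1 was read in 92.3% of 26 cells of E7.5 lane plate 1 and in all 10 cells of E8.5 plate 1, but in 28.1% of 32 cells of E8.5 plate 2. Add2 was read in 73.1, 70 and 62.5% on these plates and Epb42 in 69.2, 80 and 78.1%. By share of cells, Ank1 came before Epb42 and Add2 on lane plate 1 and after them on E8.5 plate 2. The intervals on lane plate 1 overlap, at 74.9 to 99.1% for Ank1, 48.2 to 85.7% for Epb42 and 52.2 to 88.4% for Add2. By CPM Add2 was above Ank1 there, at 96.3 against 70.1, with Epb42 at 67.02. On E8.5 plate 2 the intervals were 13.7 to 46.7% for Ank1, 60.03 to 90.7% for Epb42 and 43.7 to 78.9% for Add2. The 10 cells of E8.5 plate 1 do not settle the order either, with intervals of 69.2 to 100% for Ank1, 44.4 to 97.5% for Epb42 and 34.8 to 93.3% for Add2. By CPM Ank1 was the lowest of these 3 genes in those cells, at 93.1 against 122.6 for Epb42 and 123.2 for Add2. In the 6 cells of lane plate 1 with 10000 to 30000 CPM of globin, Epb42 had no read and Ank1 was at 19.3 CPM, where the 31 such cells of E8.5 plate 2 had 102.99 CPM of Epb42 and 0.195 CPM of Ank1. Slc4a1 was read in fewer cells than Sptb on each of the 3 plates at 30000 to 100000 CPM, in 46.2 against 100%, 50 against 100% and 0 against 96.9%.

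**Figure D2:**
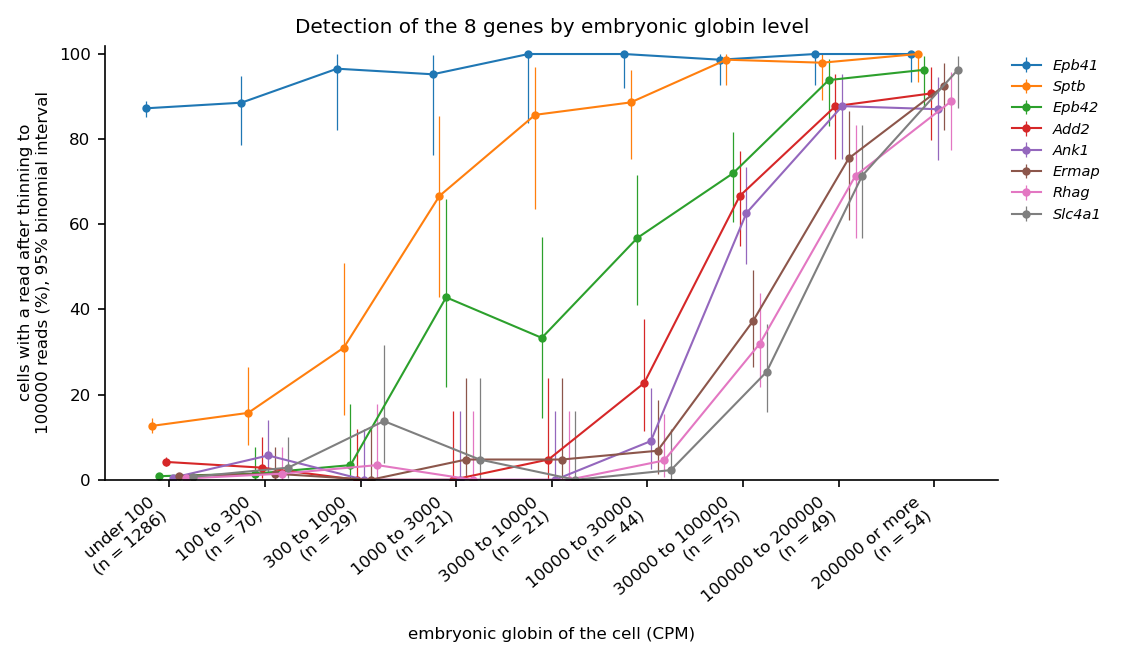
Percent of cells with at least 1 read of each gene after thinning to 100000 reads a cell, over groups of cells by summed embryonic globin CPM, with 95% exact binomial intervals as bars. In the pool of all plates Epb41 and Sptb lie above the other genes from 1000 CPM of globin on and Epb42 comes next. E7.5 lane plate 1 does not share this order for Epb42 and Ank1. Slc4a1, Rhag and Ermap are lowest in the pool at 10000 to 30000 CPM.

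The 42 cells with 1000 to 10000 CPM of globin were not a single kind of cell. Of these, 18 were on E8.5 plate 5, 12 on plate 6 and 5 on plate 2. Their summed megakaryocyte markers reached 1656 CPM, with 6 of 7 markers at 10 CPM or more and none at 0, against 427.9 CPM at 10000 to 100000 CPM of globin and 55.5 CPM above. Among these markers, Pf4 was at 644.4 CPM there and Itga2b, the gene for CD41, at 577.2 CPM. Blood progenitor markers summed to 1172 CPM there, with all 7 at 10 CPM or more, against 816.6 and 730.04 CPM in the higher 2 groups. Their cell median was 1082 CPM, against 540.1 CPM for the megakaryocyte markers. Endothelial markers summed to 551.98 CPM and visceral endoderm markers to 2571 CPM, the latter with a cell median of 0. The part of these markers in the levels of Sptb and Epb42 was not tested. By plate, Sptb was at 61.2 CPM in the cells of plate 5, 45.98 in those of plate 6 and 227.4 in those of plate 2, and Epb42 at 11.4, 24.3 and 34.7 CPM. The 9 globin-high cells of plate 5 also had 2057 CPM of megakaryocyte and 1226 CPM of blood progenitor markers. Those 9 cells had no read of Slc4a1 or Rhag, with 92.95 CPM of Sptb and 429.7 CPM of Epb41.

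Counted per cell after thinning, the median number of the 8 genes with a read was 1, 1, 2, 4 and 8 over the 5 groups. All 8 were read in 62.1% of the cells with most globin and in 5.04% of the group below. On E8.5 plate 1, 54 of 74 globin-high cells had all 8, on E7.5 lane plate 1 9 of 53, and on E8.5 plate 2 4 of 80. Slc4a1, Rhag and Ermap were each nested within Sptb. As Sptb was read in nearly all globin-high cells, few cells could show another gene without it. Of the globin-high cells, 48.2% had reads of both Slc4a1 and Sptb, 48.6% of Sptb without Slc4a1, and no cell had Slc4a1 without Sptb. Rhag likewise was not read without Sptb (49.1% of cells with both, 47.7% with Sptb alone), nor was Ermap (53.2% with both, 43.7% with Sptb alone). Against Ank1, Slc4a1 was read alone in 7 cells and Ank1 alone in 41, with 100 cells for both. Slc4a1 and Rhag missed each other about as often in both directions, with 83 cells for both, 24 for Slc4a1 alone and 26 for Rhag alone. A gene with a higher level is found more often at a fixed depth, so nesting describes these reads and not an order of transcription.

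In globin-high cells of 1 plate, Spearman's rho between Slc4a1 and the summed globin was 0.66 on E7.5 lane plate 1 (53 cells), 0.59 on E8.5 plate 1 (74 cells) and 0.43 on E8.5 plate 2 (80 cells), where rho with the total reads of a cell was -0.07, 0.03 and 0.21. The cells of a plate share a library preparation, and both measures share the cell's total. For Epb41 rho with globin was 0.29, 0.10 and 0.03. The 2 transport genes Slc4a1 and Rhag followed each other on E8.5 plate 1, at 0.67, but less on lane plate 1, at 0.13, and on plate 2, at 0.33. Slc4a1 and Ermap had 0.37, 0.64 and 0.61 on lane plate 1, plate 1 and plate 2.

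Between stages, 4 of the 8 genes were at least 2-fold higher in the globin-high cells of E8.5 than in the 55 of E7.5, and none at least 2-fold lower, beside 9.68% of 8160 genes higher and 10.8% lower. These 4 were Ermap (203.4 against 63.9 CPM, log2 difference 1.67), Slc4a1 (809.03 against 330.03, 1.29), Add2 (174.8 against 80.3, 1.12) and Epb42 (196.7 against 97.5, 1.01). Epb42 lay just past the 2-fold limit, with an interval of 0.97 to 1.05. Rhag differed by 0.65, Epb41 by 0.58, Sptb by 0.52 and Ank1 by 0.16. E8.5 plate 1 set these counts: without its cells none of the 8 genes was at least 2-fold higher and 4 were at least 2-fold lower, namely Ank1 (-2.97), Rhag (-1.85), Slc4a1 (-1.76) and Ermap (-1.55), while Epb41 stayed at 0.46. In that comparison 17% of 8388 genes were at least 2-fold higher and 8.71% at least 2-fold lower. With edgeR's TMM or DESeq2's size factors, which shift this comparison by -0.13 and -0.15, 2 genes were at least 2-fold higher in place of 4. The share of higher genes among all genes past 2-fold was 47.3% with total reads and 35.1 and 32.7% with those factors. Stage and plate cannot be told apart, since 53 of the 55 E7.5 cells were on 1 plate. Protocol may run with stage too. The paper's cell numbers for scNMT-seq and for RNA sequencing alone equal the well numbers of the later and the earlier stage. The part of protocol in the stage differences was not tested.

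For all of the 8 genes but Epb41, the E8.5 plates 1 and 2 differed more from each other than the stages did. Slc4a1 in globin-high cells was at 1287 CPM on E8.5 plate 1, 72.1 on E8.5 plate 2 and 301.5 on E7.5 lane plate 1. Its single cells had a median of 1330 CPM on E8.5 plate 1 (0.513 to 3191), 0 on E8.5 plate 2 (0 to 1637) and 33.01 on lane plate 1 (0 to 2289), and a read without thinning was found in 100, 12.5 and 64.2% of cells. Ermap was at 325.3, 14.9 and 55.7 CPM on the same plates, Rhag at 233.3, 24.6 and 92.96, and Ank1 at 145.7, 9.50 and 81.1. Epb42 was at 255.1, 115.7 and 79.7, Sptb at 312.9, 119.7 and 161.1, Add2 at 244.5, 73.6 and 77.5 and Epb41 at 428.5, 364.3 and 267.03. Slc4a1, Rhag, Ermap, Ank1, Sptb and Add2 were thus lowest on E8.5 plate 2, but Epb42 and Epb41 were lowest on lane plate 1. Globin also differed between these plates, with medians over globin-high cells of 213907 CPM on E8.5 plate 1, 46175 on E8.5 plate 2 and 74559 on lane plate 1, so plates were compared at like globin levels. Those comparisons were chosen after the plate values had been seen. The mix of Tet-TKO and host cells and the sort gate of each plate are not given in the labels. Both may differ between these plates, and their part was not tested. Lane plate 1 and the E8.5 plates may also differ in protocol, scNMT-seq or RNA sequencing alone, and the part of protocol was not tested.

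At 30000 to 100000 CPM of globin, lane plate 1 had 26 cells with a median globin of 54988 CPM and E8.5 plate 2 had 32 cells with a median of 55774 CPM. In them, 4 of the 8 genes were at least 2-fold higher on lane plate 1, beside 11% of 8325 genes. Slc4a1 was at 63.8 against 0.381 CPM, a log2 difference of 7.39 (6.34 to 8.71). No cell of the 32 on plate 2 had a read of it after thinning, which allows a share of up to 9.38%, and no cell exceeded 4.75 CPM. Ank1 was at 70.1 against 7.13 CPM (3.30), Ermap at 47.2 against 10.2 (2.21) and Rhag at 40.5 against 11.8 (1.78). Sptb was at 158.1 against 118.3 CPM (0.42) and Add2 at 96.3 against 77.6 (0.31). Epb41 and Epb42 lay the other way, at 237.1 against 369.3 CPM (-0.64) and 67.02 against 111.6 (-0.74). All genes had a median of -0.24 in this comparison, and 38.9% of genes past 2-fold were higher, which became 56.9 and 56.8% with TMM and DESeq2 factors. The 10 cells of E8.5 plate 1 in this range, with a median globin of 74693 CPM, had 94.9 CPM of Slc4a1, 93.1 of Ank1 and 51.8 of Ermap.

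At 100000 to 200000 CPM of globin, E8.5 plate 1 had 19 cells and E8.5 plate 2 had 12, with median globin of 144123 and 155939 CPM. Here 2 of the 8 genes were at least 2-fold higher on plate 1, beside 10.7% of 7947 genes, which were Ank1 (156.1 against 25.1 CPM, log2 difference 2.64) and Ermap (286.9 against 57.6, 2.32). Slc4a1 was at 821.3 against 425.5 CPM, a log2 difference of 0.95 (0.89 to 1.01). It was read in 94.7% of the cells of plate 1 and 16.7% of those of plate 2, with cell medians of 857.5 and 0 CPM. Add2 was at 227.9 against 247.8 CPM and Epb41 at 374.8 against 363.5.

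Between E8.5 plate 1 and the 18 cells of E7.5 lane plate 1 in this range (median globin 136415 CPM), 2 of the 8 genes were at least 2-fold higher on E8.5 plate 1, beside 14.5% of 8015 genes. They were Ermap, at 286.9 against 118.1 CPM (1.28), and Add2, at 227.9 against 104.6 (1.12). Slc4a1, at 821.3 against 872.6 CPM, differed by -0.09 (-0.12 to -0.06), and Ank1, at 156.1 against 155.2, by 0.01.

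**Figure D3:**
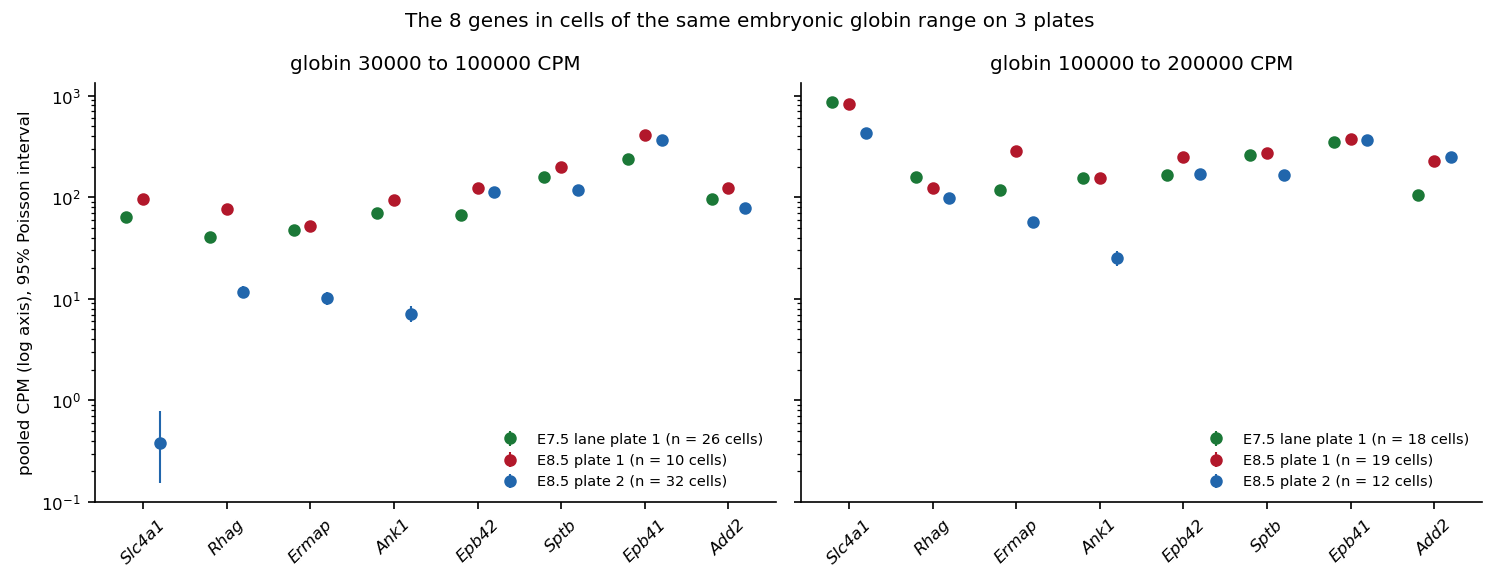
CPM of the 8 genes (log axis) in pooled cells of E7.5 lane plate 1, E8.5 plate 1 and E8.5 plate 2 at 30000 to 100000 CPM and at 100000 to 200000 CPM of embryonic globin; bars are 95% Poisson intervals on reads. In the lower range Slc4a1 is at 63.8, 94.9 and 0.381 CPM on the 3 plates, and Epb41 at 237.1, 407.9 and 369.3 CPM.

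Megakaryocyte markers differed between these plates too, at summed levels of 344.5 CPM in the globin-high cells of lane plate 1 (2 of 7 markers at 0), 62.1 on E8.5 plate 1 (4 at 0) and 284.7 on E8.5 plate 2 (1 at 0). Single cells ran from 0 to 3201, 0 to 620.5 and 0 to 2099 CPM. Their part in the plate differences was not tested. Mitochondrial reads had medians of 2.998% in globin-high cells of E7.5 and 1.48% in those of E8.5.

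The other genes of the red cell membrane were taken as a list of 18, of which 16 passed the minimum of 10 CPM in 1 of the groups. In globin-high cells 11 were at least 2-fold higher and 3 at least 2-fold lower, beside 5.17 and 28.4% of all genes, and their median log2 difference was 3.69. Kel, for the Kell blood group protease, was at 102.03 against 0.129 CPM (9.63), and Xk, whose product is bound to it, at 68.99 against 5.37 (3.68). Kcnn4, the calcium-gated potassium channel, was at 86.2 against 0.215 CPM (8.65). Tmod1, which caps actin filaments of the skeleton, was at 128.8 against 2.20 CPM (5.87), and Dmtn, for the actin-bundling dematin, at 77.8 against 3.83 (4.34). Slc14a1, the urea transporter, differed by 3.96, Rhd by 3.69, Gypc, which anchors protein 4.1, by 3.16 and Stom by 1.76.

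The 3 lower genes of the list were Bcam (0.0597 against 27.4 CPM, -8.84), Slc2a1, the glucose transporter GLUT1 (439.2 against 1117 CPM, -1.35), and Mpp1 (10.9 against 22.3 CPM, -1.04). Scaling moved the last 2 of these: with TMM or DESeq2 factors, which raise every difference by 0.39 and 0.45, Bcam alone stayed at least 2-fold lower, and Mpp1 also passed out with haemoglobin reads left out of the total. Among all genes past 2-fold, 15.4% were higher with total reads, 32.5% with TMM and 36.6% with DESeq2 factors. Cd47 differed by -0.66 and the mechanosensitive channel gene Piezo1 by 0.54, both inside 2-fold. Aqp1 was under the minimum, and Icam4 had no read in either group.

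Another list held 19 relatives of the 8 genes, chosen as widely expressed, of which 11 passed the minimum. None of the 11 was at least 2-fold higher in globin-high cells and 7 were at least 2-fold lower, beside 5.17 and 28.4% of all genes. The median log2 difference of the 11 was -1.47, against -0.35 over all genes tested. Sptan1 and Sptbn1, the alpha- and beta-spectrins of non-erythroid cells, were at 17.8 against 151.6 CPM (-3.09) and 47.4 against 222.6 (-2.23). Along globin these 2 genes and Sptb crossed. From the lowest to the highest group Sptan1 was at 149.9, 181.2, 90.1, 31.4 and 4.61 CPM. Sptbn1 was at 218.2, 298.4, 167.3, 73.1 and 22.6 CPM, against 5.59 to 290.3 CPM for Sptb.

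Among the other relatives, Ank2 differed by -4.35, Epb41l3 by -4.51, Add3 by -2.05, Epb41l2 by -1.47 and the anion exchanger Slc4a2 by -1.27, which was no longer 2-fold lower with TMM or DESeq2 factors. Ank3 did not follow the others, at 32.6 against 27.3 CPM (0.26). Add1, for the alpha-adducin that pairs with the Add2 product, was at 159.02 against 119.9 CPM (0.41). Epb41l5 differed by -0.70 and Tgm2, a paralogue of Epb42 that codes for a transglutaminase, by 0.79, which passed 2-fold with TMM and DESeq2 factors.

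**Figure D4:**
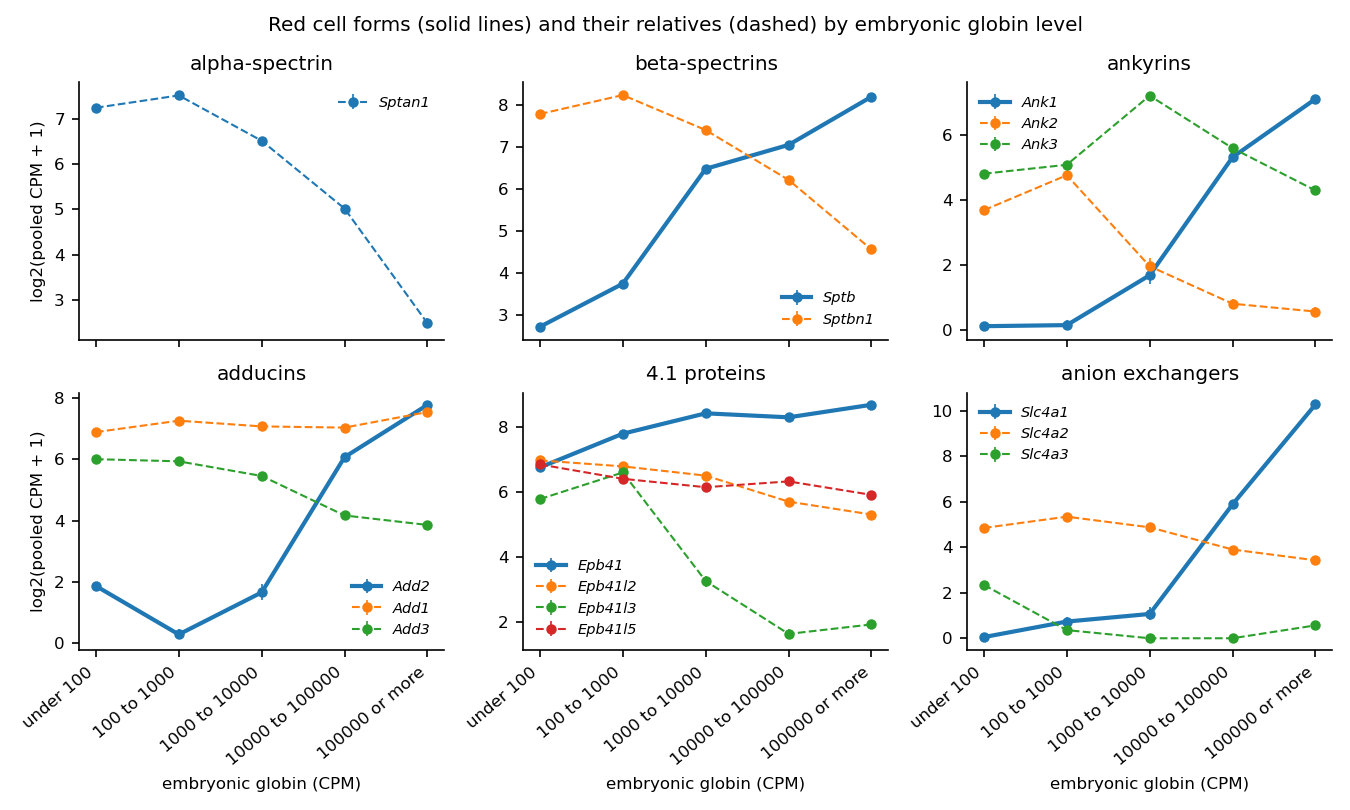
Pooled levels, as log2(CPM + 1), of red cell genes (solid lines) and their relatives (dashed lines) over the 5 groups of cells by embryonic globin CPM, with 95% Poisson intervals. Sptb goes up to 290.3 CPM as Sptan1 and Sptbn1 go down to 4.61 and 22.6 CPM.

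Among the 1385 globin-low cells, 1145 could be given to 1 of 15 marker classes, while 240 were left without a class and 99 lay near the limit between 2 classes. The classes are called like a cell type only for their markers. Blood-related classes shared many markers: megakaryocyte-like cells had a median of 5.5 of their own markers and 4 of the next class, blood progenitor-like cells 6 and 5. Epb41 was read in every class, from 70.5 CPM in extraembryonic mesoderm-like cells to 221.1 CPM in the 66 blood progenitor-like and 364.5 CPM in the 8 megakaryocyte-like cells. Sptb was at 65.9 CPM in the megakaryocyte-like cells, 30.05 in surface ectoderm-like, 16.01 in epiblast-like, where 41.3% of cells had a read, and 13.5 in cardiac and pharyngeal mesoderm-like cells. Epiblast-like cells ran from 3.55 to 27.3 CPM of Sptb over plates.

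Epb42 had 52.1 CPM in the 8 megakaryocyte-like cells, of which 1 cell, from E7.5 lane plate 1, held 85.4% of the reads and 7, from E8.5 plate 5, stood at 13.5 CPM without it, and 2.41 CPM in blood progenitor-like cells. Add2 was at 8.43 CPM in endothelial-like cells (0 to 23.5 over plates), with a read in 8.96% of cells after thinning. In definitive endoderm-like cells it was at 7.29 CPM with a read in 19.05% of cells, and in visceral endoderm-like cells at 4.1 CPM and 10.8%. In the megakaryocyte-like cells it was at 0. Slc4a1 was under 1 CPM in every class, and Rhag, Ermap and Ank1 had no read in the 8 megakaryocyte-like cells, which allows a share of up to 37.5%.

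**Figure D5:**
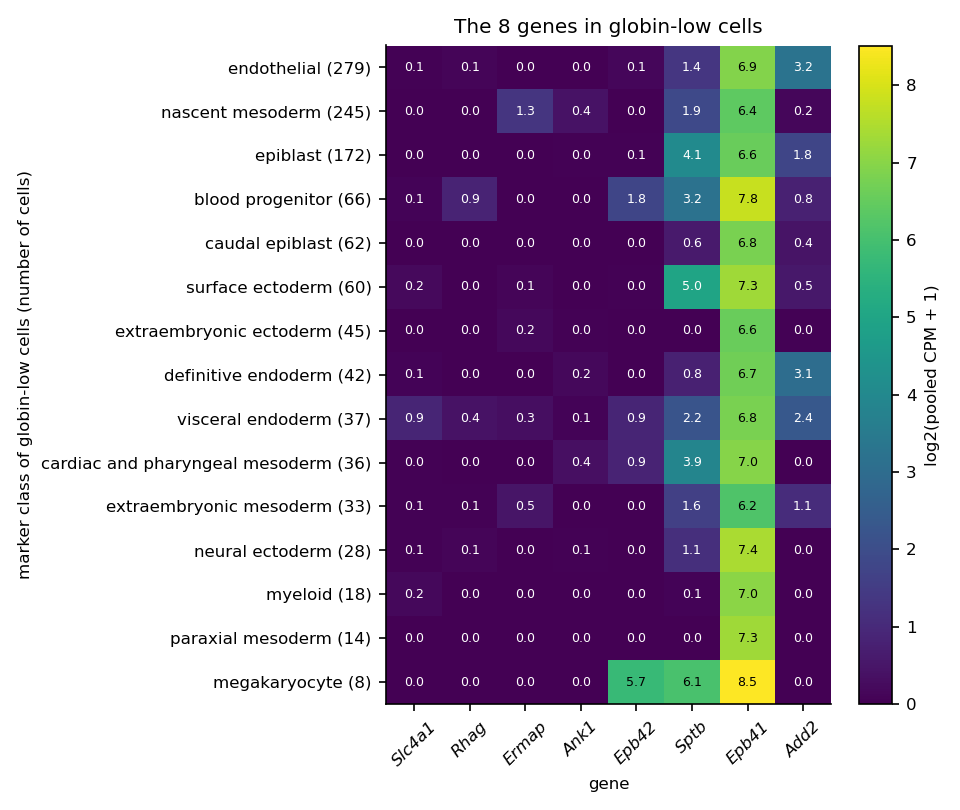
Pooled CPM of the 8 genes in the 15 marker classes of globin-low cells, as log2(CPM + 1) in colour and in figures, with the number of cells beside each class. Epb41 is coloured in every class, with 364.5 CPM at the top, and Slc4a1 stays under 1 CPM in all 15.

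The gene most like each of the 8 was looked for by Pearson's r of log2(CPM + 1) over 32 pools of cells (plate by globin group) among 9346 genes. The pools share plates and globin groups, so r is a description. The nearest gene was Slc25a37, the mitochondrial iron importer mitoferrin-1, for both Slc4a1 (0.93) and Ank1 (0.94), and Kel for both Rhag (0.95) and Ermap (0.95). Epb42 was nearest to the long non-coding RNA gene Redrum (0.97), Sptb to Tmod1 (0.95), Epb41 to Gclm, for a subunit of the enzyme that makes glutathione's precursor (0.92), and Add2 to Slc30a10, a manganese transporter (0.91).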

How the data were processed

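RNA was measured by Smart-seq2 in 1824 single cells on 19 plates of 96 wells. Per the paper's methods, the authors aligned reads with HISAT2 2.1.0 to GRCm38 and counted them per gene with featureCounts and Ensembl annotation; the deposited values are raw read counts per gene and cell, with no normalization. Strand and multimapping settings are not given in the sources used here. From these counts, CPM was computed as reads scaled to 1000000 reads in genes. Cells with at least 100000 reads were used, and levels of a group were pooled, as summed reads over summed totals. A gene entered a comparison with at least 10 CPM in 1 of the 2 groups and was counted as changed past 2-fold. Intervals are 95% exact (Poisson for levels, Clopper-Pearson for shares, conditional binomial for ratios). Where no cell or read was found, the limit given is that of 3 counts over the total. Detection was counted after thinning every cell to 100000 reads (seed 1). Globin-low cells were given to the marker class with most markers read, with at least 3. Exon lengths and loci came from GENCODE annotation of GRCm38, promoters from RefSeq. The ratio and its interval were tested on simulated data. No 2 cells held identical counts.

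Doublets were not called: cells were sorted as singlets, 1 to a well. No mitochondrial or ribosomal limit was set in the values reported. The members and gene lists were chosen with earlier results of these data known. The genes named were the 8 genes, the lists of 18 and 19 genes where a gene had at least 10 CPM in 1 group, and for each of the 8 the gene with the highest Pearson's r. From the list of 18, 2 genes enter its counts and are not reported here. Alternatives were scaling by TMM factors (edgeR 4.0.16) or by median-of-ratios size factors (DESeq2 1.42.0), both in R 4.3.3 and with no test, other limits on reads, CPM and globin, and leaving out each plate. Python 3.11.15, numpy 2.4.6, scipy 1.17.1 and pandas 2.3.3 were used. Tet-TKO and host cells were not compared.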

Additional observations from a re-analysis of the deposited data

Results flagged for a closer look

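Ank1 was at 0.646 CPM in the 94 cells of E7.5 embryo 2, against 0.0143, 0.0669 and 0 CPM in the cells of embryos 1, 4 and 5, and this value lay far from the other embryos for the spread of 4 samples. It rests on 58 reads in 3 cells, 89.7% of them in 1 cell, without which the value is 0.0677 CPM, near that of embryo 4, and none of these embryos had globin-high cells. The limit used for such a gap (Dixon's, which gives no p-value here) is passed by about 1 in 20 groups by chance, and 1 of the 8 genes passed it.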

How the results depend on the processing

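No paired analysis was possible because replicate numbers here only follow the order of the samples, and no test between groups was made. In pooled cells, all 8 genes stayed at least 2-fold higher in globin-high cells under each of the 14 alternatives run or added (4 of them leave out a plate). The other membrane genes at least 2-fold higher numbered 10 to 11. Within single plates Epb41 was under 2-fold on E7.5 lane plate 1 (0.68), E8.5 plate 2 (0.39) and E8.5 plate 5 (0.62). The share of all genes at least 2-fold higher was 10.03% with TMM factors, 11.4% with DESeq2 factors and 8.89% with no minimum CPM, against 5.17%, and 5.38 to 6.16% when each plate was left out. The log2 difference of Epb41 was 2.07 with TMM and 2.13 with DESeq2 factors. Over the 8 genes and 14 alternatives, all but 2 values moved by less than the spread between plates. That spread is the standard deviation of log2(CPM + 1) over 4 plates with globin-high cells. It includes E8.5 plate 5, where those cells had no read of Slc4a1 or Rhag, so it is wide for these 2 genes and says little about them.

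Between stages, 2 genes were at least 2-fold higher at E8.5 with TMM, 2 with DESeq2 factors and 1 when CPM was averaged over cells, against 4. Leaving out plates gave 0 to 5 of the 8 genes higher and 0 to 4 lower. Without E8.5 plate 1, 17% of all genes were higher and 8.71% lower. Over the left-out plates the log2 difference ran from -0.18 to 1.53 for Add2, from -1.55 to 2.27 for Ermap and from -1.76 to 1.89 for Slc4a1, with each lowest value without E8.5 plate 1. Without E7.5 lane plate 1, 2 E7.5 cells are left and no value was computed. Thinned to 4000 reads, Sptb was read in 47.8% of globin-high cells and Ank1 in 18.5%, against 96.8 and 63.5%, so the shares hold for their depth only. The plate comparisons at like globin kept their counts under 7 alternatives each, except for 3 in place of 2 genes between the E8.5 plates when CPM was averaged over cells.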
